A study of Bos taurus with 3 samples.

Results

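Argonaute was found at 9 sites in the transcripts of 6 bovine genes for ion pumps, channels and membrane transporters: ATP1B2, ATP13A3, KCNV2, CACNA1F, SLC4A7 and SLC38A1. They were selected by name from the authors' tables of sites on the 2 strands, which held 402 sites in 280 named genes, so that the presence of a site in each is not a finding. The samples were 3 replicates of 1 group, dissected retinas of Bos taurus of mixed strain, with no control sample. Retinal cell clusters were exposed to ultraviolet light, which joins RNA to the proteins that hold it, and the RNA recovered with Argonaute was sequenced (HITS-CLIP). The labels do not give the animals behind each replicate, so SDs with n = 3 and p-values over replicates may reflect technical spread alone.

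Photoreceptors carry a standing current: cations enter the outer segment through cyclic-nucleotide channels, and sodium pumps and potassium channels of the inner segment return the balance. At the synaptic terminal, L-type calcium channels turn the resulting voltage into transmitter release, while bicarbonate and amino acid carriers serve acid-base control and nutrient supply. Argonaute holds a microRNA (miRNA) whose seed pairs with a transcript, most often in the 3' UTR, and lowers the transcript's stability or translation. The files assign no miRNA to these sites.

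Each listed site had a peak in all 3 replicates, and its value was the number of tags (sequenced Argonaute-bound fragments) in the peak of each replicate. Tags over all listed sites summed to 6421, 5779 and 4114 in replicates 1, 2 and 3, which are not library depths. The 6 genes held 192, 173 and 113 of them, or 2.91% ± 0.142 (SD, n = 3). The tissue label was checked by markers: 9 of 10 rod and 2 of 6 cone markers had a listed site, and 0 of 38 markers of other retinal, blood or vascular cells did (Wilson upper bound 9.18%). RNA levels were not measured, and more transcript and more Argonaute per transcript cannot be told apart. Coordinates are in the authors' build, which is not named in the sources used here.

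The pump and the P-type ATPase each had 1 site, in the 3' UTR. ATP1B2 encodes the beta 2 subunit of the sodium pump, which brings the catalytic subunit to the cell surface and, in mouse retina, anchors retinoschisin at the photoreceptor inner segment. Its site on the plus strand of chromosome 19 (27695054 to 27695332) had 25, 24 and 12 tags in replicates 1, 2 and 3, a mean of 20.3 ± 7.23 (SD, n = 3; Poisson interval 15.6 to 26.1). Replicates 1 and 2 were nearly equal and replicate 3, the one with the fewest tags in all, was low. The peaks were long, at 224, 228 and 144 nt, so that the site held only 10.01 ± 1.48 tags per 100 nt of peak.

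ATP13A3 encodes a P-type ATPase of endosomes that, in human cells, moves polyamines. Its site on the plus strand of chromosome 1 (74322594 to 74322682) had 38, 22 and 23 tags, a mean of 27.7 ± 8.96 (SD, n = 3; Poisson interval 22 to 34.3). In unscaled tags replicate 1 was highest and the others were nearly equal. Scale factors that even out the replicates' tags over all sites changed this. Divided by them, the tags were 31.2, 20.7 and 29.7, with replicate 2 lowest. Its peaks were 87, 74 and 83 nt long, near the median of 82.7 nt over all 3' UTR sites, and held 33.7 ± 8.69 tags per 100 nt, a density that 3 of the 402 sites exceeded.

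Each channel subunit also had 1 site, in the 3' UTR of KCNV2 and in the coding sequence of CACNA1F. KCNV2 encodes a potassium channel subunit that forms no channel alone and joins Kv2 subunits in photoreceptor inner segments; mutations in the human gene cause cone dystrophy with supernormal rod responses. Its 3' UTR site on the minus strand of chromosome 8 (43852267 to 43852444) had 9, 14 and 10 tags, a mean of 11 ± 2.65 (SD, n = 3; Poisson interval 7.57 to 15.4). In unscaled tags replicate 2 was the highest, and its peak of 165 nt was longer than those of 86 and 104 nt in replicates 1 and 3. Divided by the scale factors, the tags were 7.39, 13.2 and 12.9, so replicates 2 and 3 were close and replicate 1 was low.

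CACNA1F encodes the pore-forming subunit of the Cav1.4 calcium channel of photoreceptor ribbon synapses, and mutations in the human gene cause congenital stationary night blindness. Its site lay in coding sequence, on the plus strand of chromosome X (55342461 to 55342527). It had 14, 7 and 6 tags, a mean of 9 ± 4.36 (SD, n = 3; Poisson interval 5.93 to 13.1). Replicate 1 was high and the others were alike, yet the site was the most exactly placed of the 9: the summits of its 3 peaks lay within 1 nt of each other, and the shortest peak, of 56 nt, lay wholly inside the others.

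SLC4A7 encodes a sodium-bicarbonate cotransporter whose loss in mice leads to photoreceptor degeneration. It had 3 sites on the minus strand of chromosome 22, and 66.3 ± 22.6 tags in all (90, 64 and 45 in replicates 1, 2 and 3). In the order of transcription, the first lay in coding sequence (1538600 to 1538668) and had 19, 11 and 10 tags, a mean of 13.3 ± 4.93 (SD, n = 3). The second, in the 3' UTR (1534041 to 1534198), had 37, 28 and 20 tags, a mean of 28.3 ± 8.50, and the third, also in the 3' UTR (1532976 to 1533078), had 34, 25 and 15, a mean of 24.7 ± 9.50. The same order of replicates, 1 above 2 above 3, held at each site and was that of the tag sums over all sites.

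Within SLC4A7 the coding site was lower than either 3' UTR site in every replicate. The ratio of the second site to the coding site was 1.95, 2.55 and 2 in replicates 1, 2 and 3. The third site was close to the second, with ratios of 0.919, 0.893 and 0.75. Per length the 3 sites were much more alike, at 24 ± 7.19, 27.4 ± 3.96 and 31.0 ± 2.58 tags per 100 nt (SD, n = 3), and the coding site was not below the second in every replicate. The summits of the 3' UTR sites were 1128 nt apart, and that of the coding site lay 4495 nt from the nearer of them along the genome, a distance that may include introns.

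SLC38A1 encodes a sodium-coupled carrier of glutamine and other neutral amino acids. It had 2 sites in the 3' UTR, on the plus strand of chromosome 5, with summits 3089 nt apart. The first (37124587 to 37124738) had 7, 19 and 8 tags, a mean of 11.3 ± 6.66 (SD, n = 3), and the second (37127593 to 37127868) had 9, 23 and 9, a mean of 13.7 ± 8.08. In unscaled tags replicate 2 was the highest at both, by more than 2-fold over either other replicate, although over all listed sites replicate 1 had the most tags. Divided by the scale factors, the tags were 5.75, 17.9 and 10.3 at the first site and 7.39, 21.7 and 11.6 at the second. Replicate 2 thus stayed the highest, but by less over replicate 3. Without replicate 2 the mean heights were 7.5 and 9 tags. The second site was 1.29, 1.21 and 1.12 times the first in replicates 1, 2 and 3, so the ratio between the 2 sites varied far less than the tags did.

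**Figure D1:**
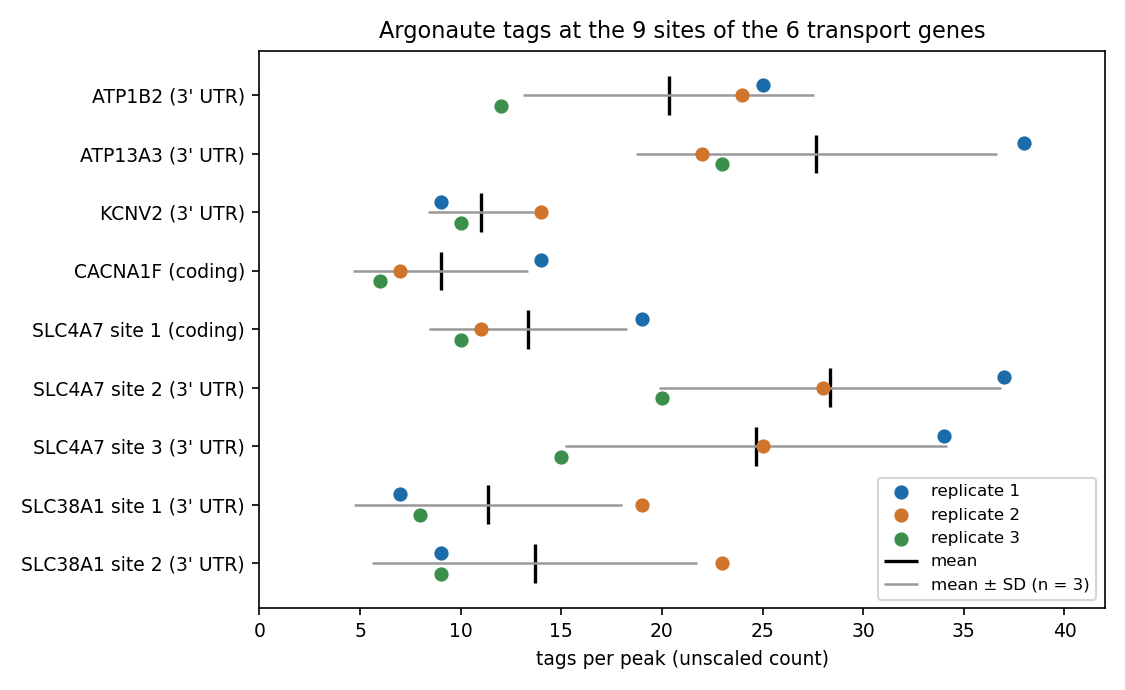
Tags per peak (x axis, unscaled count) in replicates 1, 2 and 3 at the 9 sites; sites of 1 gene are numbered in the order of transcription, the vertical bar is the mean and the grey line the mean ± SD (n = 3). Replicate 2 stands alone at 19 and 23 tags at the 2 SLC38A1 sites, and replicate 1 is highest at the 3 SLC4A7 sites.

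The spread over replicates was set against counting noise with the exact multinomial test, in which each replicate's share of a site's tags was given by its scale factor. Over all 402 sites, 20 were spread beyond counting noise (4.98%), and of the 9 sites of the transport genes 0 were (adjusted p from 0.162 to 0.987). The 2 SLC38A1 sites were the only ones of the 9 with an unadjusted p under 0.05 (exact multinomial test, p = 0.0239 at the first and 0.0133 at the second), against 14.7% of all sites. When tags were summed per gene, a test added after these values were seen, 5.36% of the 280 named genes were spread beyond counting noise. Of the 6 genes 1 was: SLC38A1 had 16, 42 and 17 tags, and the exact multinomial test gave an adjusted p of 0.0104. Replicate 2 decided this call, which also did not hold without replicate 1 (adjusted p = 0.668 without replicate 2 and 0.823 without replicate 1, exact multinomial test).

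Peak lengths moved with these counts at the second SLC38A1 site, whose peak was 204 nt in replicate 2 and 153 and 143 nt in replicates 1 and 3, but not at the first, with 152, 119 and 122 nt. Per 100 nt of peak, replicate 2 stayed the highest at both: 4.61, 16 and 6.56 tags at the first, and 5.88, 11.3 and 6.29 at the second. With expected shares weighted by peak length the gene's call was lost (exact multinomial test, adjusted p = 0.0725), and 0.714% of genes were called. With scale factors of tags per base it was also lost (exact multinomial test, adjusted p = 0.104), and 0.00% of genes were called. The part of peak length in the result was not tested further.

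Ranks between genes depended on whether tags were divided by peak length, and neither scale corrects for the amount of transcript. In tags per 100 nt of peak, all of the 9 sites but that of CACNA1F fell towards opposite ends of the list. ATP13A3 and the 3 SLC4A7 sites ranked 4, 11, 23 and 38 of 402 in tags per 100 nt, where the median of all sites was 14.8. The ATP1B2, KCNV2 and both SLC38A1 sites ranked 364, 377, 383 and 394, with 10.01 ± 1.48, 9.52 ± 0.993, 9.04 ± 6.07 and 7.82 ± 3.00 tags per 100 nt (SD, n = 3). These low-ranked sites had long peaks, at mean lengths of 199, 118, 131 and 167 nt. Those of ATP13A3 and SLC4A7, in the order of their ranks, had 81.3, 79.7, 104 and 55 nt. The part of peak length in these ranks was not tested. The CACNA1F site lay at the middle, with 14.6 ± 5.76, at rank 211. By tags per peak, without regard to length, ATP1B2 ranked 52 and CACNA1F 236.

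In tags per 100 nt of the tallest site, the 6 genes ran in the order ATP13A3, SLC4A7, CACNA1F, ATP1B2, KCNV2 and SLC38A1. Of the 5 pairs of neighbours in that order, 4 had overlapping ranges over the replicates. Compared within each replicate, CACNA1F was above ATP1B2 in 3 of 3 replicates, as it was above SLC38A1, although these ranges overlapped. The neighbours whose ranges did not overlap were at the step from SLC4A7, at 24.1 to 31.8 tags per 100 nt, to CACNA1F, at 10.7 to 21.2. Every gene above that step lay clear of every gene below it, while ATP1B2 and KCNV2 differed by less than their spread. With 3 values against 3, an exact permutation test could not reach the threshold for any pair, and none is given.

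As total tags in the tallest site of each gene, the median of the 6 genes was 17, against 10.7 over the 258 named genes outside miRNA genes. The order of the medians turned when peaks were measured per length and the densest site of each gene was taken. They were then 12.3 tags per 100 nt in the 6 genes and 15.3 in all. Of the 9 sites, 8 lay above the median height of all sites, 10.3 tags, which 48.8% of all sites exceeded; CACNA1F was the one below it. As a share of the named genes outside miRNA genes, 19.4% had 2 or more sites (50 of 258), and of the 6 genes SLC4A7 and SLC38A1 did.

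**Figure D2:**
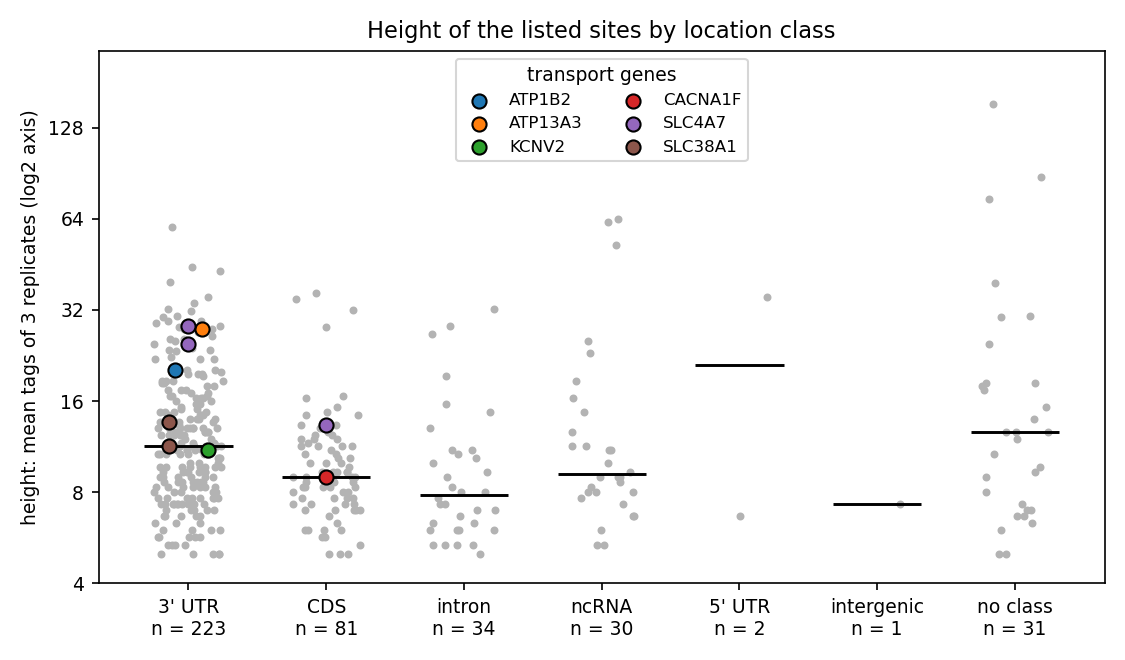
Height of each listed site (y axis, mean tags of 3 replicates, log2 axis) by the authors' location class, with black lines at class medians, grey points for other sites and coloured points for the 6 genes. The 7 sites in 3' UTRs run from 11 to 28.3 tags around and above the class median of 11.3, and the coding sites of CACNA1F and SLC4A7 have 9 and 13.3 tags, at and above the coding median of 9.

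The authors' location classes put 7 of the 9 sites in the 3' UTR and 2 in coding sequence, against 55.5% and 20.1% of all sites. All sites here include those in non-coding RNA (7.46%) and those with no class (7.71%). Sites of named protein-coding genes would not fall there, so the bases are unlike. None lay in an intron, where 8.46% of all sites were. Among the 223 sites in 3' UTRs, the SLC4A7 sites ranked 14 and 23 in tags per peak, ATP13A3 16, ATP1B2 32, the SLC38A1 sites 77 and 106, and KCNV2 113. Among the 81 coding sites, that of SLC4A7 ranked 11 and that of CACNA1F 40. No listed site of the opposite strand overlapped any of the 9.

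The replicates placed the summits of the coding sites closest together. They lay within 1 nt at CACNA1F and 2 nt at the SLC4A7 coding site. At the SLC4A7 sites in the 3' UTR they lay within 7 and 9 nt, at ATP13A3 within 15 nt and at ATP1B2 within 18 nt. They were most spread at KCNV2, with 25 nt, and at the SLC38A1 sites, with 30 and 25 nt; the median of all sites was 9 nt. The 3 peaks of the second SLC38A1 site shared a stretch of only 56.6% of the shortest one. That stretch ran from the start of the replicate 2 peak, downstream of the other starts, to the end of the replicate 1 peak. At the coding sites and at KCNV2 the 3 peaks shared 100% of the shortest one.

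**Figure D3:**
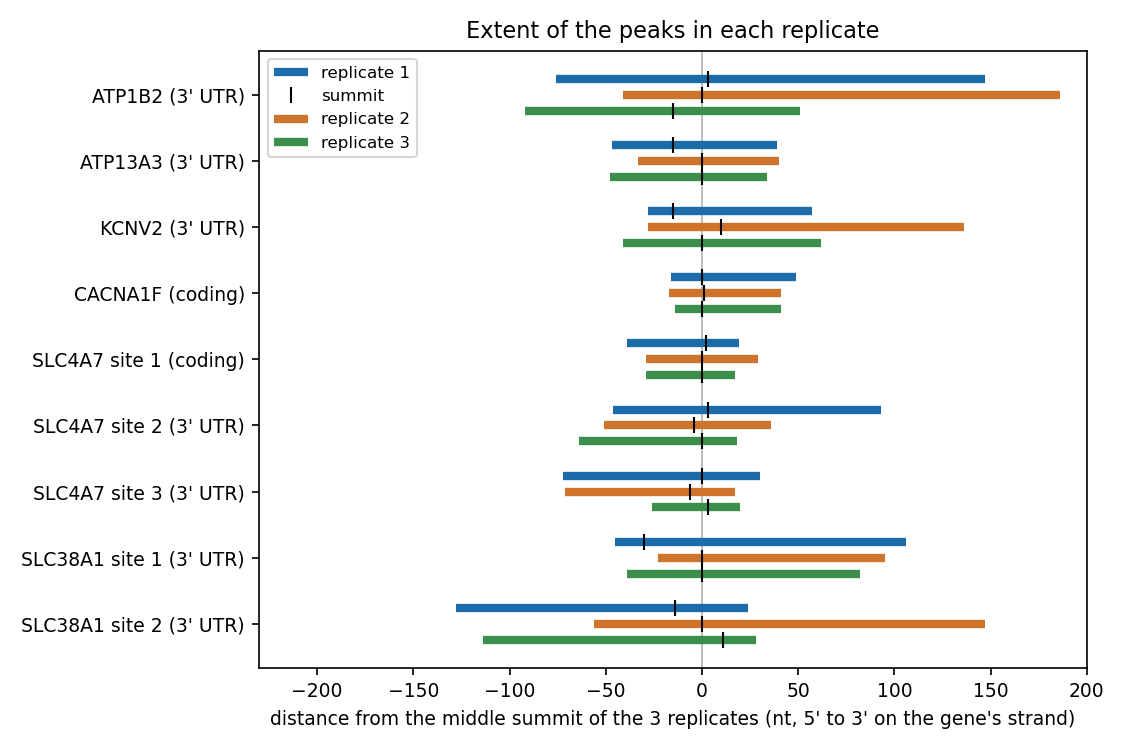
Extent of the peak in each replicate (coloured bars) and its summit (black tick) at the 9 sites, as the distance in nt from the middle summit of the 3 replicates, 5' to 3' on the gene's strand. The summits of the 2 coding sites fall within 1 and 2 nt, those of the SLC38A1 sites within 30 and 25 nt, and the replicate 2 peaks of ATP1B2, KCNV2 and the second SLC38A1 site extend furthest downstream.

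The fold enrichment of the peaks came in whole multiples of 1 step per strand and replicate, with no value further than 2.9e-06 of a step from the nearest whole number, to which it was rounded, and in 0 of 1206 peaks did the multiple exceed the tags. The multiple as a percentage of a peak's tags was taken as a measure of how concentrated the tags were. This reading is an assumption, as the headers do not say how the fold enrichment was made. By this measure CACNA1F was the most concentrated of the 9 sites, at 84.9% ± 1.37 (SD, n = 3). It had 12, 6 and 5 steps for its 14, 7 and 6 tags. The SLC4A7 coding site had 70.7% ± 8.41. The medians were 70.7% over all coding sites and 60.7% over all 3' UTR sites. ATP1B2 had 38.3% ± 5.38 and the SLC38A1 sites 42.6% ± 17.7 and 32.4% ± 1.67, while the SLC4A7 sites in the 3' UTR, at 59.7% ± 13.4 and 70.1% ± 20.9, varied widely between replicates. Across the 402 sites this percentage fell with the log2 of peak length (Pearson r = -0.909, a description across sites whose axes come from the same peaks).

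**Figure D4:**
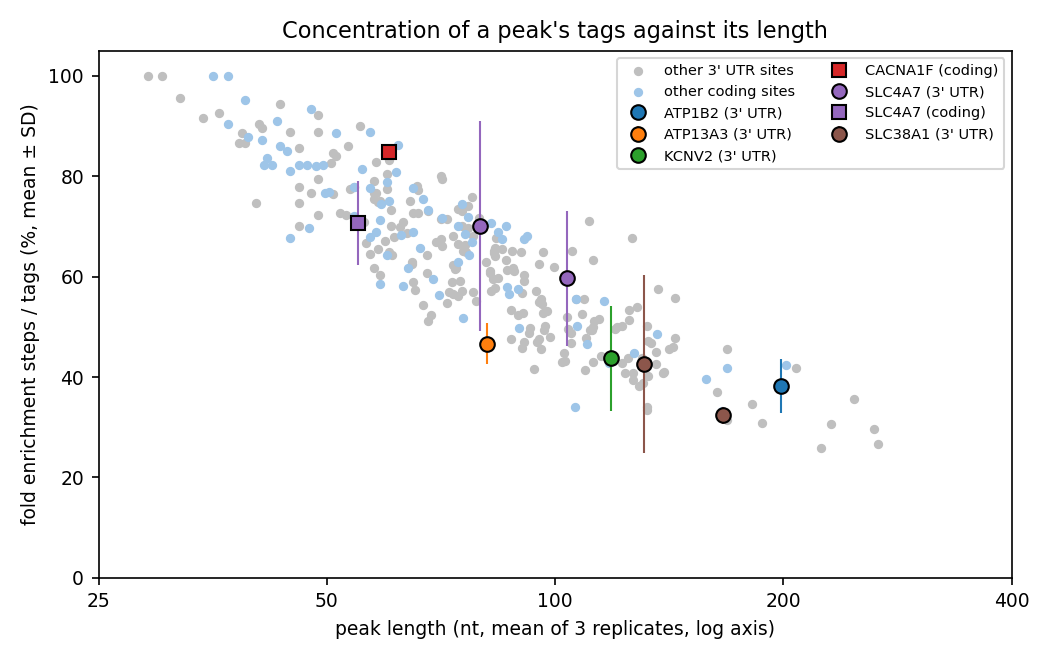
Fold enrichment steps as a percentage of a peak's tags (y axis, mean of 3 replicates, with SD bars for the 6 genes) against mean peak length (x axis, nt, log axis), for coding and 3' UTR sites. CACNA1F, at 84.9%, lies among the short coding peaks; ATP13A3, at 46.6% with peaks of 81.3 nt on average, lies at the lower edge for its length.

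By the percentage of steps, ATP13A3 was less concentrated than a site of similar mean peak length in SLC4A7. Its steps numbered 16, 11 and 11 for 38, 22 and 23 tags, or 46.6% ± 4.08 (SD, n = 3), in peaks of 81.3 ± 6.66 nt. The third SLC4A7 site, with peaks of 79.7 ± 29.1 nt, had 70.1% ± 20.9. Its peaks of 103, 89 and 47 nt in replicates 1, 2 and 3 had 52.9%, 64% and 93.3%. Those of ATP13A3, of 87, 74 and 83 nt, had 42.1%, 50% and 47.8%. The sites were thus alike in mean length but not in each replicate.

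Further sites in pumps, channels and carriers were sought with a list of 129 such genes, of which the 6 genes are members. Of these 10 had a site (7.75%, Wilson interval 4.26 to 13.7), beside 1.10% of all protein-coding genes in the gene table. The list was written with the 6 genes known, and these make up most of the 10. The share and its interval were thus largely set in advance, and the 2 percentages do not test for an excess of sites in the list. CACNB2 and CNGA1 were among the other genes with a site. Few of the listed genes of each family had one. The shares were highest for the sodium pump and for photoreceptor channels and exchangers, each with 2 of 14 genes. The others had 1 of 17 listed P-type ATPases outside the sodium pump, 1 of 23 listed potassium channel genes and 2 of 19 listed calcium channel genes. These are not whole families. Counts by symbol, chosen after the data were seen, were 1 of 95 genes starting with KCN (1.05%) and 2 of 26 starting with CACN (7.69%). Of bicarbonate carriers 1 of 10 had one, and of carriers of the SLC38 family 1 of 11. Of 21 carriers of glutamate, GABA, glucose, lactate and chloride 0 had one (Wilson upper bound 15.5%). Absence from the authors' list does not show that a transcript was free of Argonaute.

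A partner subunit of CACNA1F was thus listed as well. CACNB2, an auxiliary subunit of voltage-gated calcium channels, had an intron site on chromosome 13 (32751550 to 32751631) with 8, 5 and 3 tags. Its 10.6 ± 1.68 tags per 100 nt (SD, n = 3) and the 14.6 ± 5.76 of CACNA1F differed by less than the spread of the latter.

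CNGA1, the rod cyclic-nucleotide channel subunit, had a coding site on chromosome 6 (69169540 to 69169629) with 14, 14 and 6 tags, or 17.8 ± 4.39 tags per 100 nt, a range that overlapped that of CACNA1F. Other solute carriers with a site, named after their values were seen, were SLC22A5, SLC25A22, SLC25A36, SLC35B1 and SLC44A1. With SLC4A7 and SLC38A1 they made 7 of 374 SLC symbols in the gene table (1.87%, Wilson interval 0.910 to 3.81). The tallest site of these other carriers was a 3' UTR site of SLC25A36, a mitochondrial carrier of pyrimidine nucleotides, with 38, 18 and 10 tags. Its 29.2 ± 13.3 tags per 100 nt (SD, n = 3) lay between those of the SLC4A7 sites in the 3' UTR.

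Genes whose tallest site was most like that of each member were found by Euclidean distance over log2 tags in the 3 replicates. ATP1B2 was nearest to HNRNPU (distance 0.24, with 28, 22 and 11 tags) and DNAL1 (0.26). ATP13A3 was nearest to TP53INP1 (0.20, with 43, 23 and 22 tags) and AFF1 (0.26). The channel subunits lay near GPHN (0.25) and OSBP2 (0.31) for KCNV2, and near AHR (0.10, with 15, 7 and 6 tags) and GNB3 (0.22) for CACNA1F, both with coding sites. SLC4A7 was nearest to SH3GL2 (0.22) and LRRC58 (0.31). The second SLC38A1 site had no match as close as the others had: its nearest were MARCH6 (0.47, with 8, 17 and 9 tags) and GPHN (0.64).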

How the data were processed

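Argonaute HITS-CLIP of bovine retina was analysed in 3 replicates of 1 group. Per the submitters' processing notes, CASAVA 1.8.1 and GSNAP were used; what each did is not stated there. The build, the caller of the peaks and the criterion for listing a site are likewise not given in the sources. Per the file headers, tags are a count per peak and replicate. Each peak also has, per the file headers, a p-value as −log10 times 10 and a fold enrichment ratio over a background not described. In the negative-strand table, 1 further column of values was not used.

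Analyses ran in Python 3.11.15 (numpy 2.4.6, pandas 2.3.3, scipy 1.17.1, matplotlib 3.10.9). Names were upper-cased and matched to the 6 members. The members, the lists and the tests were chosen with earlier results of these data known. The lists were matched to symbols of a gene table from RefSeq (ARS-UCD2.0), which served for names only; all 129 list genes were found. The spread of tags over replicates was tested per site with an exact multinomial test (two-sided) against shares set by median-ratio scale factors, with Benjamini-Hochberg adjustment over all 402 sites and a threshold of 0.05; the test was checked on simulated data. The same test on tags summed per gene was added after the data were seen, with adjustment over 280 named genes. Shares carry 95% Wilson intervals, and mean tags 95% exact Poisson intervals. No molecular identifiers are described, so intervals cover counting error only.

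Genes named are the members, every list gene with a site, and for each member's tallest site the 2 genes outside miRNA genes nearest to it by Euclidean distance over log2 tags; other carriers were chosen after their values were seen. Some genes that this rule selects are left out here. The alternatives were other scalings, each replicate left out, tags per 100 nt, fold enrichment steps, log2 tags with a pseudocount of 1, tags summed per gene, a stricter p-value, sites taller than the median, merging of sites within 1000 nt, a larger overlap between peaks, each strand alone and matching by synonym.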

Additional observations from a re-analysis of the deposited data

How the results depend on the processing

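With each replicate left out, 0 of the 9 sites were spread beyond counting noise, as with all other scalings. For tags summed per gene the count of 1, SLC38A1, ranged from 0 to 1 over the replicates left out. The count became 0 with shares weighted by peak length and 0 with tags per base, and 2 without scaling, where SLC4A7 was added and replicates of unequal totals were taken as equal. The median height of 17 tags ranged from 14.2 to 20.2 with a replicate left out. On other scales, the site of each gene that was highest on that scale was taken. As tags per 100 nt the median was 12.3, and as fold enrichment steps 7.83 against 6.33 over all genes. As log2 tags with a pseudocount of 1 it was 4.05 against 3.44. With a p-value score of 500 or more in every replicate, 3 sites in 3' UTRs remained, those of ATP13A3 and SLC4A7, and 2 of the 10 list genes. The list count was 6 above the median height and 3 on the negative strand alone; both remove sites by construction. Without replicate 2 the SLC38A1 sites fell from 11.3 to 7.5 and from 13.7 to 9 tags. No paired analysis was possible because there was 1 group and none to pair it with; sites were compared within replicates in the text. At 6 to 38 tags per peak, the counts limit precision: a 9-tag mean had an interval of 5.93 to 13.1.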
